A study of Homo sapiens with 4 samples.

Results

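KIT, its closest relatives among the receptor tyrosine kinases and the ligands of these receptors were described across mammospheres with and without knockout of TCOF1. The group was taken by name and holds 10 of the 26475 genes in the count tables: the 5 receptors KIT, PDGFRA, PDGFRB, CSF1R and FLT3, and the 5 ligands KITLG, PDGFA, PDGFB, CSF1 and FLT3LG. KIT was among the genes that the study had picked from these same libraries, so its low value in the knockout is no independent evidence. The study separately reported lower KIT mRNA by RT-qPCR in knockout mammospheres and lower KIT protein by immunoblot in knockout spheroids. The cells were MDA-MB-468, an established basal-like line of triple-negative breast cancer (TNBC), grown as mammospheres, floating spheres used to enrich for cells with stem-like properties, for 7 days. There were 4 conditions with 1 library each. CTL cells carried the vector control without doxycycline, and CTL+dox cells carried it with doxycycline. gRNA2 cells carried the inducible guide against TCOF1 without doxycycline and are labelled wild type, and gRNA2+dox cells, given doxycycline to switch the guide on, are labelled as the TCOF1 knockout. All 4 came from pools that by the study's methods carried lentiviral Cas9 with mCherry and a guide vector with green fluorescent protein and were sorted for both colours, so they were mixed populations and not clones. Mammospheres of 6 to 7 plates went into 1 library, without biological replicates. The intervals below therefore cover counting error only, and no p-value is given.

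Class III receptor tyrosine kinases have an extracellular part built of immunoglobulin-like domains and a kinase that is split by an insert. A ligand, itself a dimer, joins a pair of receptors, which phosphorylate each other and recruit the PI3K-AKT, RAS-ERK and STAT routes. KIT, the receptor of stem cell factor, is known from blood stem cells, mast cells, melanocytes and germ cells, and in the breast from luminal progenitors, whereas PDGFRA and PDGFRB are best known from mesenchymal cells, CSF1R from macrophages and FLT3 from early blood progenitors.

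The guide was aimed at TCOF1 on chromosome 5, which encodes treacle, a nucleolar protein of ribosome biogenesis. The target is shown because it defines the knockout. It lies within exon 11 of the 27 exons of the canonical TCOF1 transcript, on the reverse strand at chr5:149754959-149754981 of GRCh37, the capitals mark the protospacer-adjacent motif, and it was found 1 time on that chromosome.
TCOF1 gRNA2: gggccggcgcctttccccaaGGG

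Promoter windows are shown for KIT, FLT3 and PDGFRA, the tested receptors with the widest ratio of highest to lowest level over the 4 libraries. They are the 250 bases before an annotated start, from RefSeq on GRCh38.p14, the assembly also known as hg38, the build in the submitters' processing notes. They read 5′ to 3′ in the direction of the gene, and capitals mark GC boxes, GGGCGG on either strand. The KIT window is chr4:54657707-54657956 on the forward strand and the FLT3 window chr13:28100577-28100826 on the reverse strand. The PDGFRA windows are chr4:54229043-54229292 and chr4:54233710-54233959 on the forward strand.
KIT: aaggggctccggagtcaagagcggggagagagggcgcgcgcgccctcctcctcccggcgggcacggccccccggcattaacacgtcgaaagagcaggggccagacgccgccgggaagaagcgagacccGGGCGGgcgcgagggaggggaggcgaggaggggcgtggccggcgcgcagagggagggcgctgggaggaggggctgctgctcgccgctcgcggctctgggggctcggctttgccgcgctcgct
FLT3: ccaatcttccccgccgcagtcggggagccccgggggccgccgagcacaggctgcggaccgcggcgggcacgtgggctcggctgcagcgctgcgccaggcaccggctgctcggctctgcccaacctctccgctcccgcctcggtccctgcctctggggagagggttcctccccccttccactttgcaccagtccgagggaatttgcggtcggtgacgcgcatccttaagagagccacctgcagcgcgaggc
PDGFRA start 1: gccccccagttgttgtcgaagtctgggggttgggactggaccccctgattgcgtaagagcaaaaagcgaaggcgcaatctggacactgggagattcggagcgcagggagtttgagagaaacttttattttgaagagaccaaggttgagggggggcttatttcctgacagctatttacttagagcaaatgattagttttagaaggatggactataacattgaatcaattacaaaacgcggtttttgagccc
PDGFRA start 2: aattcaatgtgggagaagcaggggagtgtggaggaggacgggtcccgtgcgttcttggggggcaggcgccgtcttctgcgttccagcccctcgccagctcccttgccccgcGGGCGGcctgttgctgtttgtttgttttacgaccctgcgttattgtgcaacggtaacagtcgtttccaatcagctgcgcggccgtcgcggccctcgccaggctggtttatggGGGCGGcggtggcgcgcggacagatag

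The windows had little in common beyond being rich in G and C in most cases. GC content was 76.4% for KIT, 72.0% for FLT3, 46.8% for the first PDGFRA start and 64.0% for the second, beside a median of 58.0% over 35116 windows. KIT held 1 GC box and FLT3 held 0, while the PDGFRA starts held 0 and 2. The E-box CANNTG occurred 2 times in the FLT3 window and 0 times in that of KIT. Searched on both strands, GGGCGG occurred in 42.6% of all windows and CANNTG in 61.8%, GATA in 45.6%, the AP-2 motif GCCNNNGGC in 19.8% and the MYB motif AACNG in 70.6%. KIT held 0 of the last 3 motifs. These are matches of letters, and binding was not measured. Windows were in the table for 8 of the 10 genes, 14 windows in all.

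The libraries held 19960644 to 26322847 reads on genes, and levels are given as reads per 1000000 (CPM) after TMM scaling. A level of 3 reads, taken as the smallest that the depth can show, corresponded to 0.115 to 0.147 CPM. TCOF1 itself had 1019, 754, 1318 and 437 reads in the order CTL, CTL+dox, gRNA2 and gRNA2+dox, the order kept for all such series. The libraries had the markers of basal-like epithelium, with KRT5, KRT17, EGFR and EPCAM at 8907 reads or more in each. Of the same list, KRT14 had 25465 to 36001 reads, KRT8 23423 to 32274 and KRT18 8482 to 11561. Reads of hormone receptors were few (ESR1 4 to 13, PGR 0 to 7), while ERBB2, which encodes HER2, had 270 to 387. Markers of other cells known for these receptors differed from list to list. All 7 mast cell markers were under 10 reads in every library, 5 of them (TPSAB1, TPSB2, CPA3, MS4A2 and SIGLEC6) at 0, and the list summed to 0.0444 to 0.147 CPM. Of 9 macrophage markers 6 were under 10 reads in every library, among them PTPRC with 1 to 2 reads and C1QB at 0, whereas CSF3R had 25 to 45 reads and CD68, a lysosomal protein that other cells also make, had 1905 to 3036, so that the list summed to 95.2 to 119 CPM. Of 9 fibroblast and pericyte markers 6 were under 10 reads, while COL1A1 had 358 to 543, and the list summed to 17.8 to 22.8 CPM. Of 6 endothelial markers only CDH5, at 0, was under 10 reads everywhere, ESAM had 173 to 234 reads and VWF 15 to 28, and the list summed to 9.80 to 11.7 CPM. The cultures were of the MDA-MB-468 line and not of tissue, so the lists describe RNA of this line.

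The ligands and receptors lay in very unequal amounts, and KIT ligand far exceeded KIT. Compared as CPM per kilobase of the canonical transcript (RPKM), the median over the 4 libraries was highest for PDGFB at 17.1, followed by CSF1R at 13.8 and KITLG at 9.01. FLT3LG at 3.94 and CSF1 at 2.96 had overlapping ranges. PDGFA at 0.551, PDGFRA at 0.425, FLT3 at 0.251, KIT at 0.203 and PDGFRB at 0.0329 followed, each with a range over the libraries that overlapped that of the next. The first 3 ranges did not overlap, and CSF1 did not overlap with PDGFA. With the lengths of all annotated exons in place of the canonical transcript, CSF1 and FLT3LG changed places and the other 8 kept theirs.

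**Figure D1:**
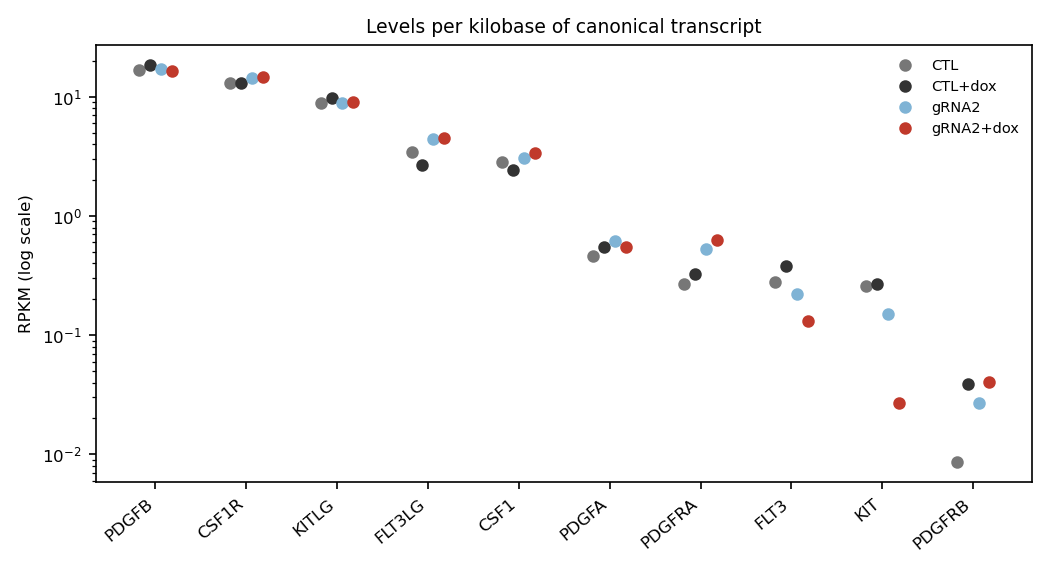
Level of each gene in CPM per kilobase of canonical transcript (RPKM, log scale), 1 point per library, genes in order of their median. The points of KIT run from 0.0267 in gRNA2+dox to 0.267 in CTL+dox, while those of PDGFB, CSF1R and KITLG lie close together.

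KIT, the receptor of stem cell factor, lies on chromosome 4 of GRCh38.p14 from 54657957 to 54740715. It had 27, 31, 20 and 3 reads, or 1.32, 1.38, 0.768 and 0.137 CPM. The gRNA2+dox library stood below the other 3, at the smallest level that the depth can show. In bulk RNA, fewer cells with KIT and less KIT RNA per cell cannot be told apart. The ratio of its highest to its lowest CPM was 10.02, the widest of the 10 genes. The median was 1.24 over the 15204 genes tested (those with at least 10 reads in a library), leaving out genes without reads in a library. That median covers genes of every depth. Counting error widens such a ratio at few reads, and no median was taken for genes with as few reads as KIT.

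PDGFRA, the receptor of the PDGF A and B chains, is the neighbour of KIT, ending 359711 bases before it. It had 35, 47, 87 and 88 reads, or 1.71, 2.09, 3.34 and 4.03 CPM. Both gRNA2 libraries were above both CTL libraries, the opposite order to KIT, and within each pool of cells the intervals with and without doxycycline overlapped. As a share of the reads on the pair, which no scaling between libraries can alter, KIT made up 43.5%, 39.7%, 18.7% and 3.30%. The exact Clopper-Pearson 95% interval of the share in gRNA2+dox was 0.685 to 9.33%, below that of gRNA2, 11.8 to 27.4%.

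FLT3, the receptor of FLT3 ligand, had 22, 33, 22 and 11 reads, or 1.08, 1.46, 0.845 and 0.504 CPM. It was lowest in gRNA2+dox, as was KIT, but its Poisson interval there overlapped those of gRNA2 and CTL. Of the other genes in the group it was the nearest to KIT in its pattern over the 4 libraries, at rank 173 of the tested genes, with the rest at ranks 4299 to 14966. Rank was by the distance between centred log2 CPM values over 4 libraries, which share their depth and are low counts for both genes.

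CSF1R, the receptor of macrophage colony-stimulating factor, was the most abundant receptor of the group. It had 1011, 1128, 1433 and 1223 reads, or 49.5, 50.1, 55.0 and 56.0 CPM. The libraries of the gRNA2 cells were slightly above those of the CTL cells. PDGFRB, the PDGF receptor best known from pericytes, lies 473 bases from CSF1R on chromosome 5 and 201851 bases from TCOF1, and had only 1, 5, 4 and 5 reads. It was not tested, being under 10 reads in every library, and differences in it were not detectable at this depth.

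The ligand of KIT, KITLG (stem cell factor), had 993, 1209, 1263 and 1079 reads, or 48.6, 53.7, 48.5 and 49.4 CPM. It was nearly level, and its highest CPM was 1.11 times the lowest, within the 1.16 that was the median for genes with a mean of 1000 to 2000 reads. Per kilobase of transcript KITLG exceeded KIT 34.8-fold, 36.9-fold, 59.7-fold and 340.2-fold. KIT made up 0.277% of the reads on the pair in gRNA2+dox (interval 0.0572 to 0.808%) and 1.56% in gRNA2 (0.955 to 2.40%), and these intervals did not overlap.

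The ligands of the PDGF receptors differed strongly in level. PDGFB had 1288, 1545, 1670 and 1335 reads, or 63.1, 68.6, 64.1 and 61.1 CPM, and its highest CPM was 1.12 times its lowest. PDGFA had 26, 34, 44 and 33 reads, and its Poisson intervals overlapped among all libraries. Of the reads on PDGFRA and PDGFB together, the receptor made up 2.65%, 2.95%, 4.95% and 6.18%.

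CSF1 and FLT3LG, the ligands of CSF1R and FLT3, were both lowest in CTL+dox and highest in gRNA2+dox. CSF1 had 231, 217, 321 and 293 reads, or 11.3, 9.63, 12.3 and 13.4 CPM. FLT3LG had 74, 63, 121 and 103 reads, or 3.62, 2.80, 4.65 and 4.72 CPM. The balance of receptor and ligand thus differed between these pairs. CSF1R made up 80.7 to 83.9% of the reads of CSF1R and CSF1 in the 4 libraries. FLT3 made up 22.9%, 34.4%, 15.4% and 9.65% of the reads of FLT3 and FLT3LG.

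**Figure D2:**
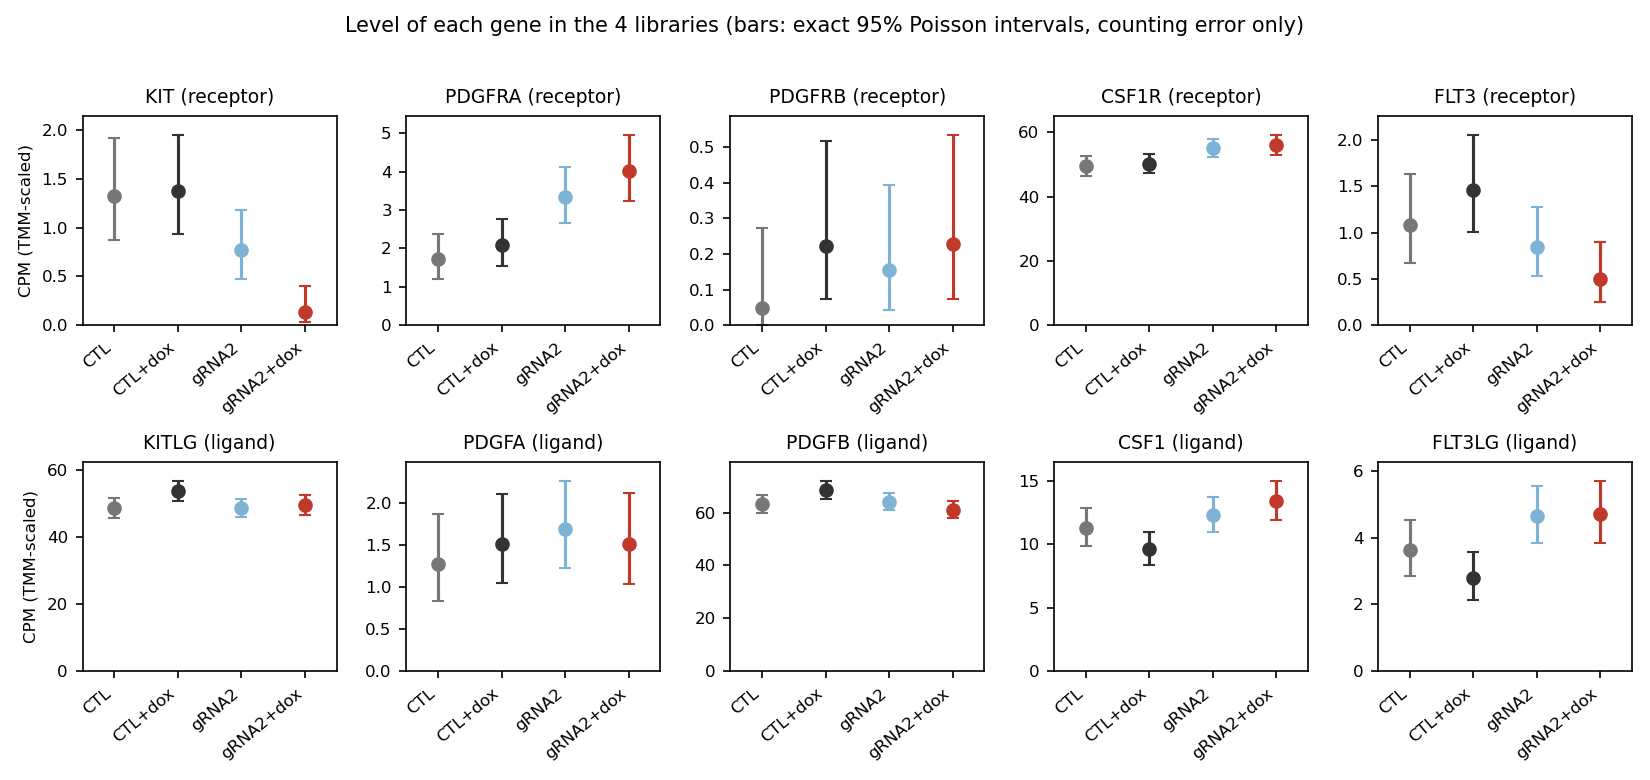
CPM after TMM scaling of the 5 receptors (upper row) and 5 ligands (lower row) in each library, on linear axes from 0 that differ between panels, with exact 95% Poisson intervals. KIT at 0.137 CPM in gRNA2+dox lies below its other 3 values, PDGFRA is highest in both gRNA2 libraries, and KITLG stays between 48.5 and 53.7 CPM.

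The effect of the induced guide was addressed by setting gRNA2+dox against each other library. A gene was called where its log2 fold change was past 1 and a bound of counting error past 0.5. KIT was called lower in all 3 comparisons, which share the gRNA2+dox library, and no other gene of the group was. PDGFRA was called higher against CTL alone. TCOF1 itself was called lower against gRNA2 and CTL, and not against CTL+dox. Its log2 fold change against CTL+dox was -0.74 (-0.92 to -0.57). Against gRNA2, 1 of 9 tested genes of the group was called lower and 0 higher, beside 0.27% and 0.257% of all tested genes. Against CTL+dox the counts were 1 and 0, beside 0.98% and 0.454%. Against CTL they were 1 and 1, beside 0.796% and 0.408%. For all 3 together they were 1 and 0, beside 0.118% and 0.158%. The gene called lower was KIT each time, which the study had picked from these same libraries with similar cutoffs. The counts of lower calls are therefore no evidence about the group as a set.

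The log2 fold change of KIT was -2.31 against gRNA2 (interval -4.88 to -0.73), from 3 reads against 20. Against CTL+dox it was -3.13 (-5.68 to -1.64), and against CTL -3.08 (-5.63 to -1.57). With 3 reads in the lower library, the size of the difference is known only within these wide limits. With a minimum of 50 reads in a library KIT is not tested.

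FLT3 was lower in the same direction without reaching a call. Its log2 fold change was -0.72 against gRNA2 (-1.94 to 0.36). It was -1.50 against CTL+dox (-2.67 to -0.52), and -1.06 where CTL was the reference (-2.29 to 0.01). The bound against CTL+dox was -0.40, short of the cutoff, and FLT3 was called there with the log2 fold change alone or with a bound at the 5% quantile.

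PDGFRA had a log2 fold change of 0.27 against gRNA2 (-0.17 to 0.72). Set against the CTL cells it was 0.94 with doxycycline (0.42 to 1.49) and 1.22 without (0.65 to 1.84). The larger values were those against the CTL cells, whatever the doxycycline. For FLT3LG the values were 0.02 (-0.37 to 0.41), 0.75 (0.29 to 1.23) and 0.38 (-0.06 to 0.83) in the same order. For CSF1 they were 0.12 (-0.11 to 0.36), 0.48 (0.22 to 0.74) and 0.25 (-0.01 to 0.50).

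The abundant members differed little. CSF1R had log2 fold changes of 0.03 (-0.09 to 0.14), 0.16 (0.04 to 0.28) and 0.18 (0.06 to 0.30) in the same order. For PDGFB they were -0.07 (-0.17 to 0.04), -0.17 (-0.27 to -0.06) and -0.05 (-0.16 to 0.07). For KITLG they were 0.03 (-0.09 to 0.15), -0.12 (-0.24 to 0.00) and 0.02 (-0.10 to 0.15). PDGFA lay between -0.16 and 0.24, with intervals that spanned 0. Intervals excluded 0 for 1 of 9 genes against gRNA2 (31.0% of all tested genes), for 7 against CTL+dox (40.3%) and for 3 against CTL (33.3%). Over the 9 genes the median log2 fold change was 0.02, 0.00 and 0.18, beside -0.02, 0.00 and 0.01 for the 15204 genes. The gRNA2+dox library was the lowest of the 4 for 3 of 9 genes (26.3% of all tested genes) and the highest for 4 (23.8%).

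**Figure D3:**
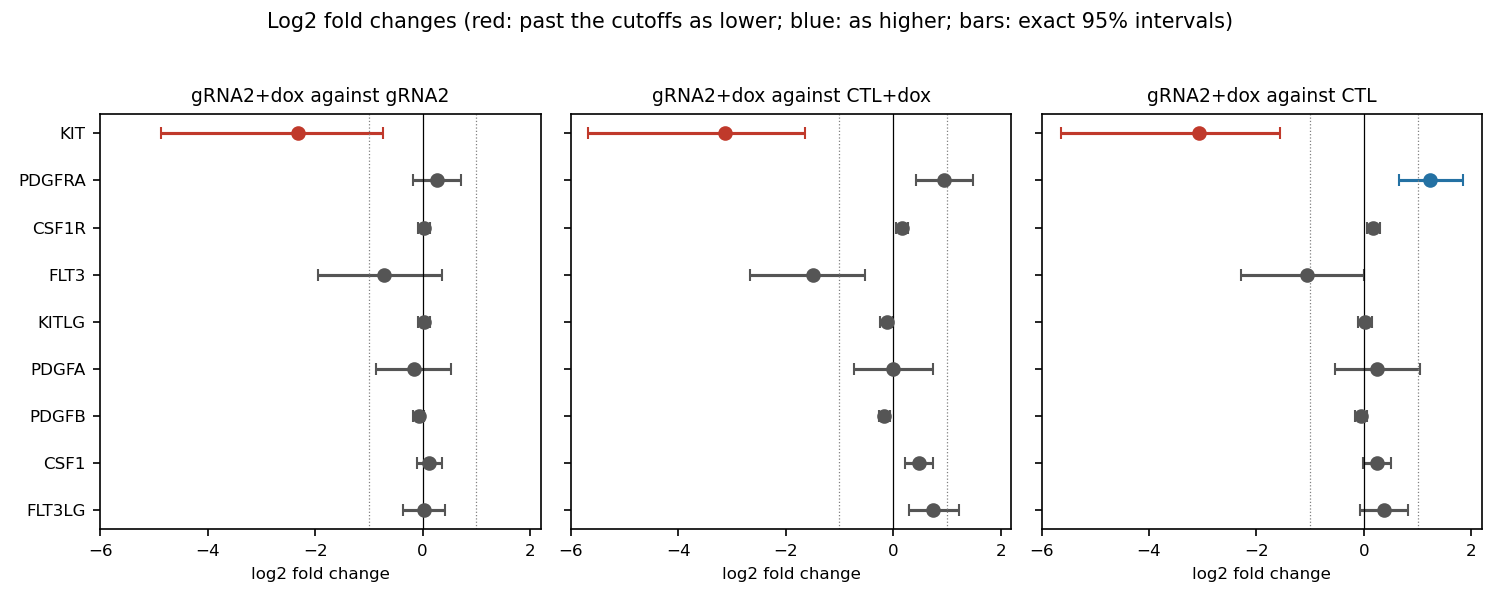
Log2 fold changes of the 9 tested genes in gRNA2+dox against each other library, with exact 95% intervals of the reads; dotted lines mark -1 and 1. KIT lies at -2.31, -3.13 and -3.08, PDGFRA passes the cutoffs against CTL at 1.22, and FLT3 lies at or below -0.72 in each panel.

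Without doxycycline the guide should be silent, so gRNA2 against CTL compares the cell pools. Intervals excluded 0 for PDGFRA and CSF1R, 2 of 9 genes (31.5% of all tested genes). No gene of the group was called there, beside 0.362% of tested genes called lower and 0.112% higher. PDGFRA had a log2 fold change of 0.95 (0.38 to 1.57) and KIT of -0.77 (-1.70 to 0.10). For FLT3 it was -0.34 (-1.27 to 0.57), for FLT3LG 0.36 (-0.07 to 0.80) and for CSF1 0.12 (-0.12 to 0.37). Summed over both doxycycline states, so with the induced gRNA2+dox library included, 175 reads of PDGFRA in the gRNA2 cells stood against 82 in the CTL cells, a ratio of 1.91 after scaling (1.46 to 2.52). For FLT3LG the ratio was 1.47 (1.18 to 1.83), for CSF1 1.23 (1.09 to 1.39), for CSF1R 1.11 (1.05 to 1.18) for FLT3 0.538 (0.338 to 0.843) and for KIT 0.356 (0.209 to 0.586). Both gRNA2 libraries were above both CTL libraries for 5 of the 9 genes (PDGFRA, PDGFA, CSF1R, CSF1 and FLT3LG) and below them for 2 (KIT and FLT3), beside 24.8% and 20.5% of all tested genes. PDGFA counts among the 5 by a log2 difference of 0.00, and with total counts alone the numbers were 4 above and 4 below. With 1 pool per guide, a difference between pools and a guide acting without doxycycline cannot be told apart.

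Doxycycline in the CTL cells gave no call in the group either, beside 0.112% of tested genes called lower and 0.0592% higher. Intervals excluded 0 for KITLG at 0.14 and PDGFB at 0.12, 2 of 9 genes (31.0% of all tested genes). The log2 ratio of CTL+dox to CTL was 0.06 for KIT (-0.73 to 0.86), 0.44 for FLT3 and 0.28 for PDGFRA. All 9 lay within 0.5 of 0. The difference of the doxycycline ratios, gRNA2 cells minus CTL cells, used all 4 libraries and was estimated as the log2 of a conditional odds ratio of the reads, without a prior count. For low counts it therefore departs from the difference of the ratios given above. It was -2.51 for KIT (-5.05 to -0.54), -1.17 for FLT3 (-2.65 to 0.24) and -0.01 for PDGFRA (-0.83 to 0.80). It was 0.35 for CSF1 (-0.01 to 0.72), 0.40 for FLT3LG (-0.25 to 1.04) and -0.12 for KITLG (-0.29 to 0.06). PDGFB gave -0.19 (-0.34 to -0.04), and CSF1R 0.01 (-0.16 to 0.18). TCOF1, outside the group, gave -0.76 (-0.97 to -0.55). With DESeq2 size factors or total counts the interval of CSF1 also excluded 0. With a normal interval of the counts, 26.9% of all tested genes gave a difference that excluded 0.

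**Figure D4:**
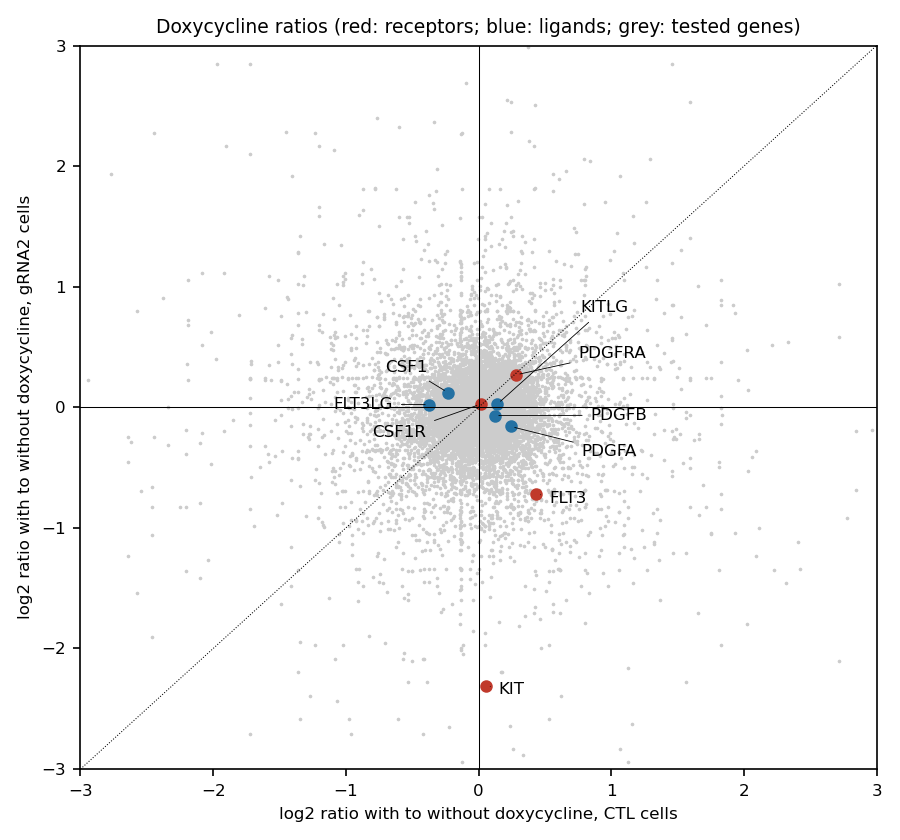
Log2 ratio with to without doxycycline in CTL cells (horizontal) and gRNA2 cells (vertical) for the tested genes, with receptors in red and ligands in blue; the dotted line marks equal ratios, and 36 tested genes lie outside the axes. KIT lies at 0.06 and -2.31 and FLT3 at 0.44 and -0.72, while the other members lie near the centre.

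The genes nearest to KIT in their pattern over the 4 libraries were PLEKHA5, PRUNE2, NPY5R, MAP4K1 and COL8A1. PLEKHA5 had 44, 54, 26 and 6 reads and COL8A1 28, 39, 30 and 3. PRUNE2 had 13, 10, 7 and 1 reads, NPY5R 14, 24, 15 and 2, and MAP4K1 12, 9, 8 and 1. All 5 were, like KIT, at few reads in gRNA2+dox, and nearness over 4 values of low counts is a description only.

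The genes around the receptors were described by lists. Among 36 adaptors and kinases below the receptors, 0 were called against gRNA2 or CTL+dox. Against CTL 1 was called higher, beside 0.408% of all tested genes. The medians in the 3 comparisons were -0.03, 0.03 and 0.04. Of all tested genes 0.27% were called lower and 0.257% higher against gRNA2, so a count of 0 in a list of this size is near the background. Of 17 tested inhibitors of receptor signalling 0 were called, which is near the same background. The members with the largest differences from gRNA2 were SOCS1, a feedback inhibitor of JAK kinases, at 0.82, the phosphatase PTPN6 at -0.29, and the adaptor SH2B3 at -0.21. Against CTL+dox their values were 0.19, -0.01 and -0.06. SOCS1 had 631, 822, 616 and 912 reads and lay at -0.39 in gRNA2 against CTL.

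A list of relatives held 2 tested VEGF receptors and 5 tested ligands of the wider family. Of these 7 genes FLT1, a VEGF receptor 199769 bases from FLT3, was called lower against CTL+dox, beside the 0.98% of all tested genes. It had 43, 66, 25 and 19 reads, and its log2 fold change was -1.73 against CTL+dox (-2.57 to -0.998) and -0.14 against gRNA2 (-1.08 to 0.78). Both gRNA2 libraries were thus below both CTL libraries, as for FLT3, and their summed reads gave a ratio of 0.362 (0.249 to 0.518).

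Of 9 tested proteases that process these ligands or their like, 2 were called lower against CTL+dox and CTL and 0 against gRNA2, beside 0.98%, 0.796% and 0.27% of all tested genes. PCSK5, a proprotein convertase, had 56, 41, 20 and 10 reads and also passed in gRNA2 against CTL at -1.81. PLAT, tissue plasminogen activator, had 414, 371, 265 and 159 reads, with a log2 fold change of -1.18 against CTL+dox (-1.46 to -0.91) and -0.48 against gRNA2 (-0.78 to -0.19). Both were lower in the gRNA2 cells also without doxycycline.

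Among 11 tested regulators of KIT expression, transcription factors and their partners together with the microRNA gene MIR221, GATA1, an erythroid and mast cell factor, was called lower against gRNA2 at -2.04 (-3.41 to -0.99), with 23, 17, 41 and 8 reads, beside 0.27% of all tested genes. The list had medians of -0.16, 0.04 and -0.16 in the 3 comparisons. Among 11 tested genes of luminal progenitors, the breast cells known for KIT, ELF5 was called lower against CTL+dox and CTL, beside 0.98% and 0.796% of all tested genes. This transcription factor had 151, 216, 59 and 39 reads and also passed in gRNA2 against CTL at -1.70, while against gRNA2 its value was -0.34 (-0.97 to 0.26). The median of the list was -0.12, -0.14 and -0.22. Its part in the level of KIT was not tested.

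**Figure D5:**
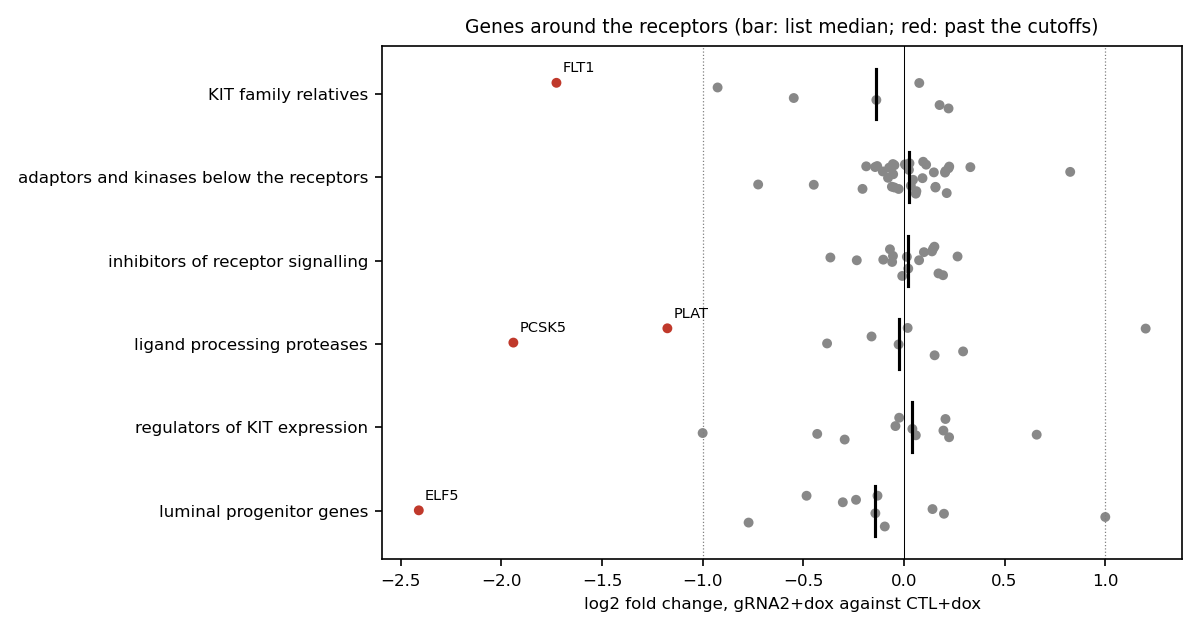
Log2 fold changes of the tested genes of 6 lists in gRNA2+dox against CTL+dox, 1 point per gene, with the list median as a bar, genes past the cutoffs in red and dotted lines at -1 and 1. FLT1 lies at -1.73, PCSK5 at -1.94, PLAT at -1.18 and ELF5 at -2.41, while the list medians lie between -0.14 and 0.04.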

How the data were processed

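RNA-seq of the 4 mammosphere libraries was used as deposited. The authors trimmed reads with fastp, aligned them with STAR and deposited its counts of reads per gene, not normalized. The build in the submitters' processing notes is hg38, and the annotation is not given in the sources used here. STAR counts only reads that map to 1 place, and reads on overlapping genes are set aside. The unstranded counts were used without the reads not assigned to a gene (no feature 10.6 to 12.5%, multimapping 3.39 to 4.85%).

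Counts were scaled with edgeR 4.0.16 (TMM over all genes) in R 4.3.3, with a prior count of 0.5 in log2 fold changes. The filter kept 15204 of 26475 genes, those reaching 10 counts in any library. A call needed a log2 fold change past 1 and a posterior quantile (1% or 99%, Poisson error) of that log2 ratio past 0.5, computed with Python 3.11.15 and scipy 1.17.1 in place of GFOLD and tested on simulated data. Intervals of a pair of libraries are exact 95% Clopper-Pearson intervals, and the difference of the doxycycline ratios is the log2 conditional odds ratio of the 4 counts, corrected for library size, with its exact interval. RPKM used lengths from GENCODE on GRCh37, matched by symbol for 10 of 10 genes. Positions and promoters come from RefSeq on GRCh38.p14.

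The genes and lists were chosen with earlier results of these data known. Named were all 10 genes of the group, TCOF1, the 5 genes nearest to KIT, and from each list the genes called in any comparison or else the 3 with the largest difference from gRNA2 at 50 reads or more. A gene that this rule names is not reported here. Marker genes named beside these were chosen after their values were seen. DESeq2 1.42.0 size factors, total counts, a prior count of 5, other call rules, other filters and the summed strand columns were tried as alternatives.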

Additional observations from a re-analysis of the deposited data

Results flagged for a closer look

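The response to doxycycline differed between the gRNA2 cells and the CTL cells for 2 of the 9 tested genes of the group. The measure was an interval of the reads that excluded 0. With a normal interval of the counts 26.9% of all tested genes had such a difference, so the count is near the background. For KIT the log2 conditional odds ratio, gRNA2 cells over CTL cells, was -2.51, from 20 and 3 reads without and with doxycycline in the gRNA2 cells and 27 and 31 in the CTL cells. For PDGFB it was -0.19, from 1670 and 1335 reads against 1288 and 1545. The interval covers counting error only and the difference was not tested across replicates. Of the 4867 tested genes with a mean of at least 1000 reads, 44.5% had a difference that excluded 0 with a normal interval of the counts. That set holds PDGFB and not KIT.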

How the results depend on the processing

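With 1 library per condition, variation between cultures was not measured. All 220 log2 fold changes and 30 doxycycline differences recomputed under the alternatives lay within the interval given for them. The alternatives reused the same reads, so where intervals are wide, as for KIT, this outcome says little. Of 6 of the recomputed results the sign turned under another scaling, each with a value of at most 0.0236 in size as reported. No called value changed sign. A prior count of 5 brought the log2 fold change of KIT from -2.31 to -1.47 with gRNA2 as the reference. With CTL+dox as the reference it went from -3.13 to -2.16, and with CTL from -3.08 to -2.11. The doxycycline difference of CSF1 was 0.38 with an interval that excluded 0 under DESeq2 size factors, and likewise 0.377 under total counts, so that 3 genes in place of 2 did. Of 96 recomputed counts of called genes, 89 were kept. With the log2 fold change alone, 2 genes (KIT and FLT3) in place of 1 were called lower against CTL+dox and 2 against CTL. With a bound at the 5% quantile, 2 (KIT and FLT3) were called lower against CTL+dox. With at least 50 counts in a library, 0 were called lower against gRNA2, against CTL+dox, against CTL and against all 3, since KIT is then not tested. No paired analysis was possible because the labels number no replicates and there was a single library to a condition.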
